A study of Mus musculus with 2 samples.

Results

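The genes described here are 47 nuclear genes that encode subunits of the mitochondrial oxidative phosphorylation (OXPHOS) system, measured in single cells of mouse pancreatic islets. They were chosen by symbol, as a list of 19 genes of complex I, 3 of complex II, 6 of complex III, 10 of complex IV and 9 of complex V, among 28692 genes counted. All 47 symbols were found in the count matrices. Of the list, 3 genes are isoforms that replace a general subunit in particular tissues: Cox6a2 (partner Cox6a1), Cox4i2 (partner Cox4i1) and Ndufa4l2 (partner Ndufa4). The other 44 are referred to as the general subunits.

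Complexes I to IV of the inner mitochondrial membrane pass electrons from NADH and succinate to oxygen and, at complexes I, III and IV, pump protons, and complex V (ATP synthase) uses the proton gradient to make ATP. In beta cells the ATP made from glucose closes potassium channels and so triggers insulin release, which makes OXPHOS part of glucose sensing. Cox6a2 is best known from heart and skeletal muscle, Cox4i2 from lung and from oxygen sensing, and Ndufa4l2 as a gene induced by hypoxia-inducible factor. Ndufa4 was first assigned to complex I and has since been placed with complex IV, and it is kept here in the complex of its name.

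The series compared islets of flox/flox mice with islets of mice labelled BcBKO, a beta-cell-specific ablation attributed to Pdx1-cre. The ablated gene is read from the series title, which names BAF60C, the chromatin remodelling subunit encoded by Smarcd3. The Pdx1 promoter that drives Cre is active in the embryonic pancreas as well as in adult beta cells. Each group was 1 droplet library of 3′ tags, from islets pooled from at least 3 mice and digested to single cells, and strain, age and sex are not given in the labels used here. With 1 library per group, no test between the groups was possible, and every interval below covers counting error only.

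Libraries held 9438 barcodes with 167670996 UMIs (unique molecular identifiers, each 1 counted RNA molecule) for flox/flox and 10775 barcodes with 178647270 UMIs for BcBKO, and 23 barcode sequences occurred in both. Smarcd3 was counted at 1.35 CPM in beta cells of flox/flox (45 UMIs) and 2.09 CPM (71 UMIs) in those labelled BcBKO, so its 3′ tags were not lower there. Because of this, flox/flox and BcBKO below mean the libraries so labelled, and every direction between them rests on the labels. Beta cells held little Smarcd3 in either library, against 72.4 and 46.9 CPM in mural cells (cells of vessel walls, defined below). Counts this low say little about the deletion. Whether the tags lie outside the deleted part, the labels are crossed, or neither holds, cannot be told apart. Summed over 6 acinar enzyme genes, of which Prss1 was at 0, the level ranged over the 6 cell classes from 354 to 1494 CPM in flox/flox and from 54.1 to 159 CPM in the library labelled BcBKO. The part of this RNA in the differences between libraries was not tested.

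Cells were classed by hormone or marker UMIs, without use of the 47 genes. Beta cells had at least 25% of UMIs from Ins1 and Ins2 and 10000 UMIs, with under 1% each of Gcg, Sst and Ppy. The other classes had under 15% insulin UMIs and at least 10% Gcg (alpha), 5% Sst (delta), 3 UMIs of Plvap and Cdh5 (endothelial), 5 of Rgs5 and Pdgfrb (mural, the pericytes and smooth muscle cells of vessels) or 5 of C1qa and C1qb (macrophage). In that order the classes held 2750, 377, 242, 1178, 223 and 422 barcodes in flox/flox and 3058, 634, 308, 996, 163 and 331 in the library labelled BcBKO. Each class had the highest summed level of its own marker list among the 6 in both libraries. The lists include the genes of the class rules, so this order is not a separate check of the classes. Alpha and delta barcodes also held Ppy and Pyy, at 146692 and 157080 CPM in flox/flox and 119085 and 164872 CPM in the other library. Barcodes that met several rules, 629 and 595, were left out, and of these 555 and 489 were endothelial and mural at once.

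Levels are CPM (UMIs of a gene scaled to 1e+06 UMIs) of nuclear UMIs without islet hormones, summed over the cells of a class, because hormone and mitochondrial UMIs made up 72.2% and 70.9% of all UMIs in beta cells and 8.06% and 9.32% in endothelial cells. Each molecule gives 1 3′ tag whatever the length of its transcript, so a level is not divided by length, and capture can differ between genes.

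The isoform pairs are shown as coding sequences, since the pair shares below depend on telling the transcripts apart. They are from GENCODE M21 (GRCm38), written 5′ to 3′, and capitals mark bases that differ from the partner, or have no counterpart in it, in a pairwise alignment. Of Cox6a1 the first 300 of 339 coding bases are shown. Cox6a2 lies at chr7:128205435-128206387 on the minus strand and Cox6a1 at chr5:115345642-115348981 on the minus strand. Ndufa4l2 lies at chr10:127514967-127517154 on the plus strand and Ndufa4 at chr6:11900292-11907497 on the minus strand.
Cox6a2: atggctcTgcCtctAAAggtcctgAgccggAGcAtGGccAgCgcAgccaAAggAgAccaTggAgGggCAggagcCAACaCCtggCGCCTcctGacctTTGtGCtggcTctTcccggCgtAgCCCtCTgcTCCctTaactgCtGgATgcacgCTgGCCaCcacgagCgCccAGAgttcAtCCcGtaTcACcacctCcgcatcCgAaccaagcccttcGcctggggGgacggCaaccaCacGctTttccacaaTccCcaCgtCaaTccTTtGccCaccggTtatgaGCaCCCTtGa
Cox6a1: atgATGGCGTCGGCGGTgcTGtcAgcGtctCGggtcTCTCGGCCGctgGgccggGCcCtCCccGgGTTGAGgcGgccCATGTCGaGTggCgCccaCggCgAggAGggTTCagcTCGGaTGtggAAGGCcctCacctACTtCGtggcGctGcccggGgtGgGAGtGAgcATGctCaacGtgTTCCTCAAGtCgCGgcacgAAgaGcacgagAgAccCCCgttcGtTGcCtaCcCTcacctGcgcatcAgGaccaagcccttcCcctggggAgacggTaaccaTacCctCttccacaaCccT
Ndufa4l2: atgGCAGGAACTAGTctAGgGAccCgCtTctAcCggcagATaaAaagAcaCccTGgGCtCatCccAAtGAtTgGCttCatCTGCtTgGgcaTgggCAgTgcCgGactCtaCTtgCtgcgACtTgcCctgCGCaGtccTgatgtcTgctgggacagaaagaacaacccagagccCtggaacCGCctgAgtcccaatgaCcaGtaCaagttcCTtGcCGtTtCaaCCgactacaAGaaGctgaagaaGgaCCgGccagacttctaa
Ndufa4: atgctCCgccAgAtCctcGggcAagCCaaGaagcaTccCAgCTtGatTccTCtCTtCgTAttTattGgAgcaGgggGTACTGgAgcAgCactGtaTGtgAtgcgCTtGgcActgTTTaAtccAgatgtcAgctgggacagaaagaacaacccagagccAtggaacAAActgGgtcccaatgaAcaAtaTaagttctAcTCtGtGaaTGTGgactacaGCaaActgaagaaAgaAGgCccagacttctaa
Of 290 aligned bases, 193 (66.6%) were identical between Cox6a2 and Cox6a1, and the longest run shared by the whole transcripts was 12 bases. For Ndufa4l2 and Ndufa4 the values were 174 of 242 bases (71.9%) and 28 bases. For Cox4i2 (chr2:152754173-152765037, plus strand) and Cox4i1 (chr8:120668222-120674207, plus strand) they were 342 of 485 bases (70.5%) and 14 bases.

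Cox6a2 was a gene of beta cells in both libraries. Its level in beta cells was 334 CPM in flox/flox (11157 UMIs) and 318 CPM in the library labelled BcBKO (10772 UMIs). In the other 5 classes it lay between 4.89 and 10.0 CPM in flox/flox and between 6.48 and 14.4 CPM in the other library. Both beta values thus stood far above all 10 values of the other classes. The beta level was 55.9 times that of alpha cells in flox/flox (95% interval 35.4 to 94.4) and 30.8 times (23.1 to 42.1) in the other library. Against delta cells the ratios were 55.1 (29.9 to 115) and 22.1 (15.2 to 33.5).

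In the edgeR quasi-likelihood test over all genes, Cox6a2 was lower in alpha than in beta cells by a log2 fold change of -5.28 (SE 0.18, Benjamini-Hochberg adjusted p = 6.4e-12) and lower in delta cells by -4.97 (SE 0.20, adjusted p = 7.1e-11). The difference was at least 2-fold, with adjusted p under 0.05, under all 6 alternative settings of each contrast. Each SE given with an edgeR fold change is that fold change divided by the square root of the test's F statistic. It is not a separate estimate and can be smaller than counting error where a class holds few UMIs.

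Cox6a2 made up more than its partner of the UMIs of the pair in beta cells. Its share of Cox6a1 and Cox6a2 together was 56.5% (95% exact binomial interval 55.8 to 57.2) in flox/flox and 53.7% (53.0 to 54.4) in the library labelled BcBKO. In the other classes the share was between 2.07% and 7.54% in flox/flox and between 2.96% and 11.9% in the other library. Cox6a1, the general form, was at 258 and 274 CPM in beta cells, 184 and 201 CPM in alpha cells and 104 and 106 CPM in macrophages. The partner was therefore present at a level of the same order in every class, while Cox6a2 was not.

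Cells were thinned to 2000 UMIs, which kept all beta cells and left out 5 alpha, 5 delta, 27 endothelial, 12 mural and 10 macrophage barcodes of flox/flox and 13, 2, 50, 10 and 5 of the other library as too shallow. After thinning, 16.0% of beta cells in flox/flox and 15.6% in the other library had a Cox6a2 UMI. The shares elsewhere were between 0.422% and 1.30% in flox/flox and between 0.98% and 4.29% in the library labelled BcBKO. Without thinning, 79.5% and 77.1% of beta cells had one, at median depths of 38461.5 and 33171.5 UMIs, against 4.75% of endothelial cells in flox/flox at 4293 UMIs. The 2000 UMIs include hormone UMIs, so thinned beta cells held fewer nuclear non-hormone UMIs than the other classes. Cox6a1, whose level was highest in beta cells, was found in 13.6% of thinned beta and 30.4% of thinned endothelial cells of flox/flox.

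The few Cox6a2 UMIs outside beta cells were set against insulin UMIs in the same barcodes, since insulin RNA is the main free RNA of islets. Per 10000 Ins1 and Ins2 UMIs there were 1.44 Cox6a2 UMIs (1.42 to 1.47) in beta cells of flox/flox and 1.7 (1.01 to 2.69) in alpha cells. Delta cells of flox/flox had 1.48 (0.709 to 2.72). In the library labelled BcBKO the ratio was 1.49 (1.46 to 1.52) in beta cells, 2.31 (1.69 to 3.08) in alpha cells and 2.89 (1.90 to 4.20) in delta cells. The intervals outside beta cells contained the beta ratio in alpha, delta, mural and macrophage cells of flox/flox and in mural cells of the other library, and lay above it in the remaining 5 cases, which were endothelial cells of both libraries and alpha, delta and macrophage cells of the library labelled BcBKO. The intervals outside beta cells rest on 4 to 60 UMIs, and the source of these tags was not tested.

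**Figure D1:**
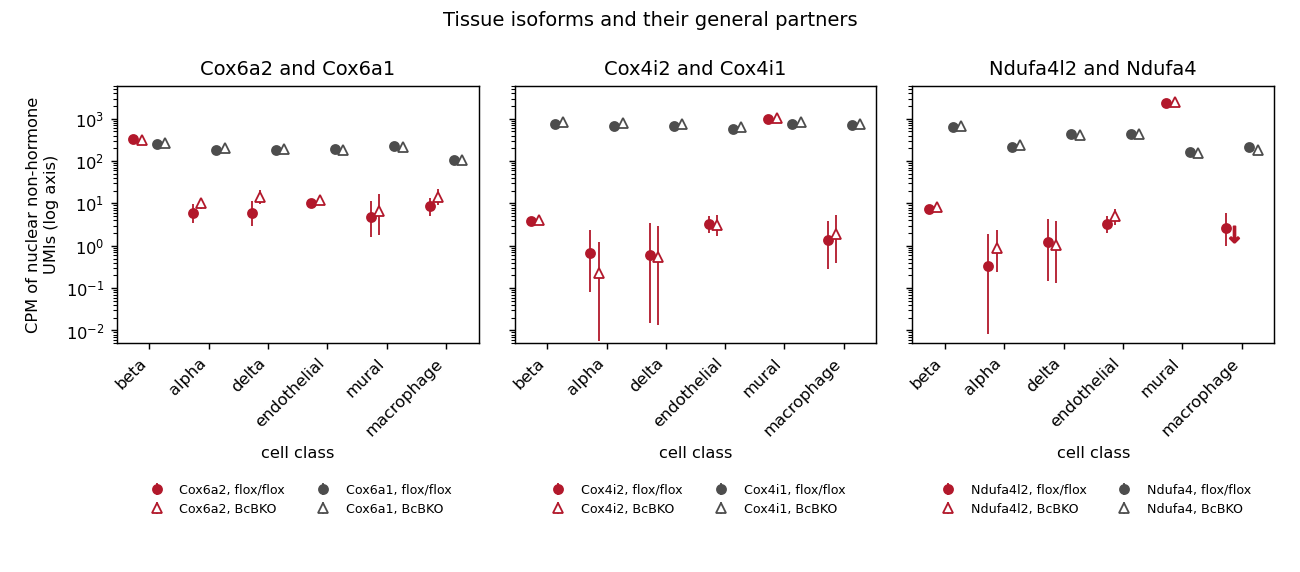
Level of each isoform (red) and its general partner (grey) in 6 cell classes, as CPM of nuclear non-hormone UMIs on a log axis, with 95% exact Poisson intervals. Filled circles are flox/flox, open triangles the library labelled BcBKO, and the arrow marks the limit of 3 counts where 0 UMIs were counted. Cox6a2 stands at 334 and 318 CPM in beta cells and at most 14.4 CPM elsewhere, and Cox4i2 and Ndufa4l2 stand at 987 CPM or more in mural cells and at most 8.40 CPM elsewhere.

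Within beta cells the Cox6a2 share of the pair rose with the insulin share. Beta cells of each library were ordered by insulin share of UMIs and divided into 3 equal groups. In flox/flox the Cox6a2 share was 46.5% (45.1 to 47.9), 56.7% (55.5 to 57.9) and 62.9% (61.8 to 64.0) from the lowest to the highest group, whose median insulin shares were 59.7%, 64.3% and 68.3%. In the library labelled BcBKO it was 44.9% (43.6 to 46.2), 55.2% (54.0 to 56.4) and 59.3% (58.2 to 60.5). The intervals of neighbouring groups did not overlap in either library. The Cox6a2 level rose with them, from 217 to 439 CPM and from 228 to 386 CPM. As CPM of all UMIs it was 71.2, 95 and 107 in flox/flox and 79.3, 98.6 and 97.2 in the library labelled BcBKO, where it was not higher in the top than in the middle group.

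Over the same groups the 44 general subunits together went from 19473 to 20243 CPM in flox/flox and from 20881 to 21015 CPM in the other library. As CPM of all UMIs they fell instead, from 6374 to 4926 and from 7249 to 5294, since nuclear non-hormone UMIs were 32.7% of UMIs in the lowest and 24.3% in the highest group of flox/flox, and 34.7% and 25.2% in the other library. Depth moved with the insulin share: the median of UMIs per cell went from 32767 to 43193 and from 28265 to 38374. Ordered by UMIs per cell into 4 equal groups, the Cox6a2 share went from 49.9% to 59.2% in flox/flox and from 50.8% to 54.1% in the library labelled BcBKO. Whether depth or other RNA in the droplet contributes to the order by insulin was not tested.

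**Figure D2:**
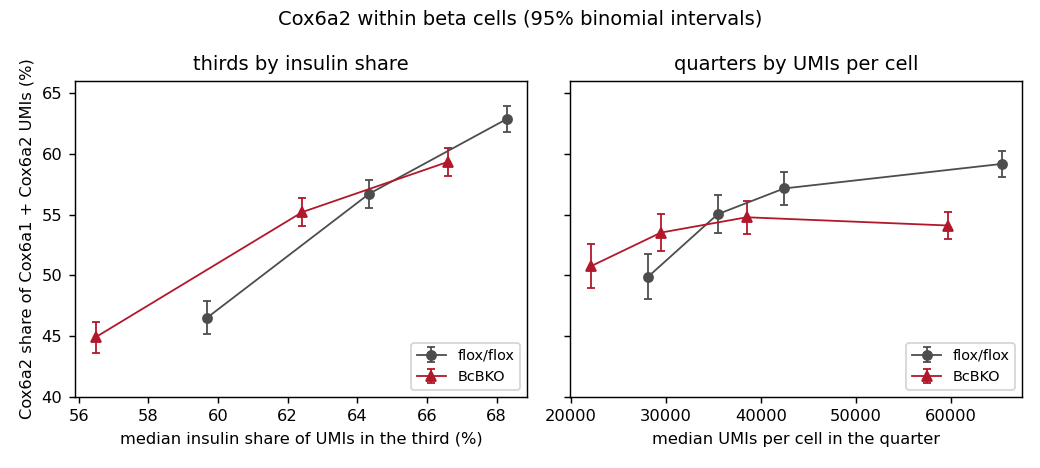
Cox6a2 share of Cox6a1 and Cox6a2 UMIs within beta cells, in 3 groups by insulin share (left) and in 4 groups by UMIs per cell (right), with 95% exact binomial intervals. Circles are flox/flox and triangles the library labelled BcBKO. The share rises over the insulin groups in both libraries, from 46.5% to 62.9% and from 44.9% to 59.3%.

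Ndufa4l2 and Cox4i2 were genes of mural cells. Ndufa4l2 was at 2349 CPM in mural cells of flox/flox (2400 UMIs) and 2470 CPM in those of the library labelled BcBKO (1526 UMIs). Cox4i2 was at 987 CPM (1008 UMIs) and 1064 CPM (657 UMIs). In the other 5 classes both genes stayed between 0 and 8.40 CPM in both libraries, with no overlap with mural cells.

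Against endothelial cells, the other vascular class, mural cells had 703 times the Ndufa4l2 level in flox/flox (454 to 1153) and 501 times (330 to 802) in the other library. The ratios for Cox4i2 were 295 (190 to 486) and 339 (201 to 624). In edgeR's quasi-likelihood test the log2 fold change of mural over endothelial cells was 9.21 for Ndufa4l2 (SE 0.24, adjusted p = 2.7e-13) and 8.29 for Cox4i2 (SE 0.14, adjusted p = 5.8e-15). With barcodes of several classes kept, these fell to 1.37 and 1.32, since most such barcodes met both the endothelial and the mural rule. With such barcodes left out, endothelial cells held 20 and 14 Cox4i2 UMIs. The intervals of the ratios, rather than the SE of 0.14, show that counting error.

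In mural cells Ndufa4l2 all but replaced its partner among the counted tags. It was 93.5% of Ndufa4 and Ndufa4l2 UMIs in flox/flox (92.5 to 94.4) and 94.0% (92.8 to 95.1) in the library labelled BcBKO. Cox4i2 was 56.9% of its pair (54.6 to 59.3) and 56.5% (53.6 to 59.4). In every other class the Ndufa4l2 share was at most 1.26% and the Cox4i2 share at most 0.572%. No Ndufa4l2 UMI was counted in macrophages of the library labelled BcBKO, which allows a level of up to 1.86 CPM there.

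The partners differed in what accompanied this. Ndufa4 was at 163 and 157 CPM in mural cells, the lowest of the 6 classes, and at 433 and 428 CPM in endothelial cells. The log2 fold change of mural over endothelial cells was -1.42 (SE 0.12, adjusted p = 1.5e-07, edgeR). Cox4i1 was at 746 and 817 CPM in mural cells and at 581 and 622 CPM in endothelial cells, with a log2 fold change of 0.38 (SE 0.09, adjusted p = 0.0033, edgeR). In mural cells Ndufa4 was thus lower beside its isoform while Cox4i1 was higher beside its own. The median was 0.15 over all genes and 0.62 over the 44 general subunits. Cox4i1 lay above the first and under the second, and Ndufa4 under both.

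At 2000 UMIs per cell, 94.3% and 94.8% of mural cells had an Ndufa4l2 UMI, and 79.6% and 78.4% had a Cox4i2 UMI. Taken singly, neither gene had a UMI in more than 0.782% of the cells of any other class. Unthinned, both genes were found together in 202 of 223 mural cells of flox/flox (90.6%) and in 140 of 163 of the other library (85.9%). Only 6 mural cells in each library had neither.

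Mural cells were divided by Acta2 and Myh11, markers of contractile cells. Ndufa4l2 was at 2560 CPM (2454 to 2669) in the 183 contractile cells of flox/flox and at 1183 CPM (1019 to 1367) in the other 40. In the library labelled BcBKO it was at 2752 CPM (2598 to 2912) in 113 contractile cells and 1795 CPM (1605 to 2000) in the other 50. Cox4i2 was likewise higher in contractile cells, at 1047 against 653 CPM and 1176 against 793 CPM. These intervals did not overlap.

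Ndufa4 ran the other way, at 111 CPM (89.9 to 135) in contractile and 454 CPM (355 to 573) in other mural cells of flox/flox, and at 98.6 CPM (71.4 to 133) and 297 CPM (223 to 388) in the other library. The shares of cells with an Ndufa4 UMI were alike, at 36.6% and 37.5% in flox/flox and 31.0% and 30% in the other library. The higher level thus came from more UMIs in the cells that had any, and rests on 71 and 54 UMIs. The remaining mural cells were shallower, with medians of 2687 and 2776 UMIs against 4878 and 4068. They held more Col1a1, a collagen gene of fibroblasts, at 211 and 914 CPM against 8.09 and 22.9 CPM. The part of such cells in the lower isoform levels was not tested.

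Small numbers of mural isoform tags were counted in beta cells, which also held more mural marker RNA than alpha cells. Ndufa4l2 was at 7.40 and 8.40 CPM and Cox4i2 at 3.75 and 4.16 CPM in beta cells, above their levels of 0.332 and 0.896 CPM and of 0.664 and 0.224 CPM in alpha cells. Both genes passed the test as lower in alpha than in beta cells, with log2 fold changes of -3.55 (adjusted p = 8.3e-06) and -3.26 (adjusted p = 1.6e-05) in edgeR. Summed over 8 mural markers the level was 87.3 and 71.6 CPM in beta cells and 16.9 and 15 CPM in alpha cells. Per 10000 Rgs5 and Pdgfrb UMIs, Ndufa4l2 had 1345 UMIs (1183 to 1524) in beta and 1891 (1816 to 1968) in mural cells of flox/flox. In the other library it had 1901 (1687 to 2135) and 2127 (2021 to 2236). Only 77 of 2750 beta cells of flox/flox had an Ndufa4l2 UMI at all. For Cox4i2 the ratios were 681 (567 to 811) in beta and 794 (746 to 845) in mural cells of flox/flox, and 941 (792 to 1109) and 916 (847 to 988) in the other library. The part of mural RNA in these tags was not tested. The fitted fold changes rest on 1 to 4 UMIs per library in alpha cells.

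The genes whose levels were most like each isoform over the 12 sums of class and library were found by Pearson correlation of log2(CPM + 1), among 10417 genes at 20 CPM or more in any sum. The points share libraries and cell classes, so the values are descriptive. For Cox6a2 they were Aldh1l2 (r = 0.976), Car10 (0.961), Ero1lb (0.961), Tmem229b (0.960) and Galr1 (0.960). Ero1lb, an oxidase of the endoplasmic reticulum that forms disulphide bonds in proinsulin, was at 1751 and 1733 CPM in beta cells and at most 124 CPM elsewhere.
For Cox4i2 they were Foxs1 (0.994), Acta2 (0.993), Gm13861 (0.992), Cspg4 (0.992) and Casq2 (0.991). For Ndufa4l2 they were Higd1b (0.995), Myl9 (0.995), Fam162a (0.991), Notch3 (0.991) and Olfr558 (0.990). Cspg4 and Notch3 are classical pericyte genes, and Acta2 and Myl9 encode contractile proteins of smooth muscle. Cox4i2 and Ndufa4l2 had r = 0.986 with each other, and Cox6a2 had -0.19 and -0.14 with them.

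The general subunits were counted in all classes, at levels that differed between genes. In beta cells the highest member of complex I was Ndufa4 at 633 and 685 CPM, of complex II Sdhb (the iron-sulphur subunit of succinate dehydrogenase) at 185 and 175 CPM, and of complex III Uqcrq at 726 and 865 CPM. The highest of complex IV was Cox8a, a small structural subunit, at 1562 and 1584 CPM. The highest of complex V was Atp5l, subunit g of the membrane part of ATP synthase, at 1630 and 1604 CPM. Apart from the isoforms, the lowest members were Ndufs1 (57.4 and 54.2 CPM), Sdhd (164 and 159.5 CPM), Uqcrc1 (150.0 and 153 CPM), Cox6a1 and Atp5o (208 and 254 CPM).

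Summed over the 44 genes, beta cells stood highest on the scale of nuclear non-hormone UMIs, at 20003 CPM (2.00%) in flox/flox and 21027 CPM (2.10%) in the library labelled BcBKO. Mural cells followed at 15853 and 15448 CPM, delta cells at 14857 and 14735, alpha cells at 13842 and 14020, endothelial cells at 10378 and 10540, and macrophages at 8025 and 8280. The order of the 6 classes was the same in both libraries. As a share of all UMIs the order turned: beta cells were then lowest, at 5552 and 6126 CPM, and mural cells highest, at 14192 and 13803 CPM. Every statement on beta cells below therefore holds for the part of their RNA that is not hormone or mitochondrial.

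Of the 44 genes, 29 were highest in beta cells in both libraries, 6 in mural, 1 in alpha and 1 in endothelial cells. Macrophages were lowest in both libraries for 31 and endothelial cells for 6. Cox4i1 varied least, between 581 and 748 CPM over the classes of flox/flox and between 622 and 850.5 CPM in the other library. Ndufa1, a small membrane subunit of complex I encoded on the X chromosome, varied most among them, from 612 CPM in beta cells to 122 CPM in macrophages as means of both libraries.

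**Figure D3:**
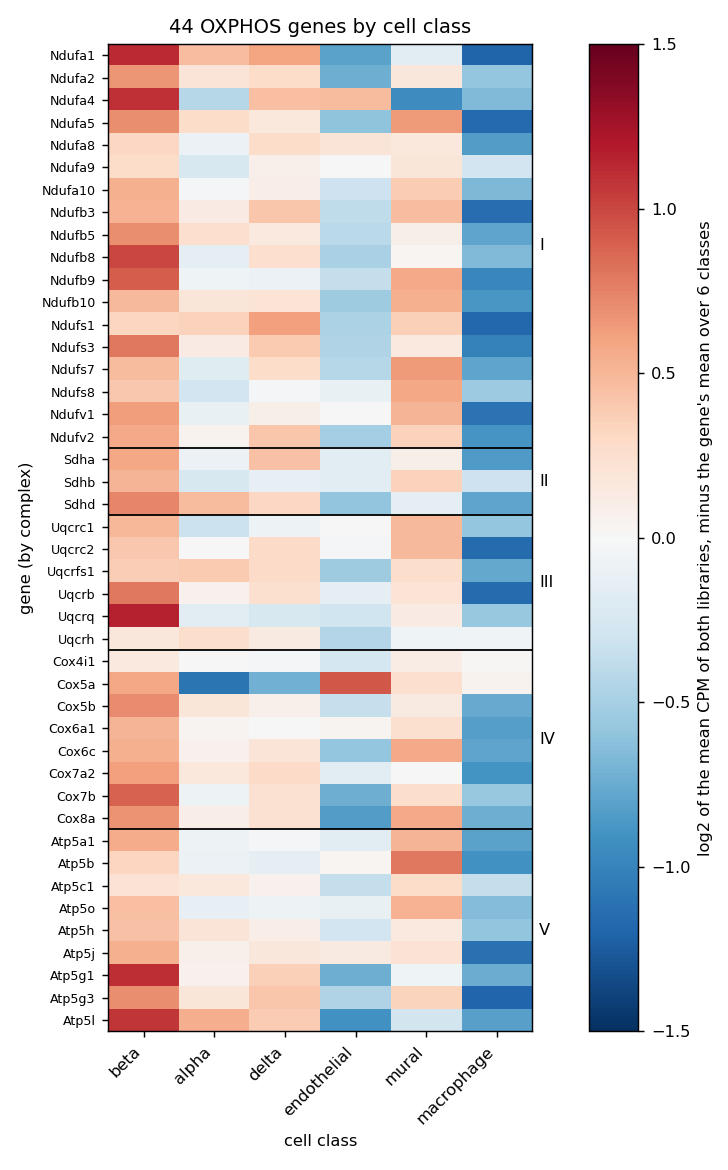
Heatmap of the 44 general subunits (rows, grouped by complex I to V) in 6 cell classes (columns), as log2 of the mean CPM of both libraries minus the gene's mean over the classes, red high and blue low. Most rows are reddest in beta cells and bluest in macrophages, and Cox5a and Ndufa4 depart from their complexes.

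Classes were compared in 1 edgeR fit of 12 sums (6 classes in 2 libraries), with class and library as terms and 13518 genes tested. A gene was called at an adjusted p under 0.05 and at least 2-fold. The 2 values per class come from libraries of unlike genotype, and both classes of a contrast share their libraries.

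Alpha cells had less of the OXPHOS genes than beta cells. Of 47 genes, 8 were called lower, where 13.1% of all genes were, and none higher, where 6.73% of all genes were. The number called lower was near that of all genes. At any fold size 42 were lower (34.5% of all genes) and 0 higher (15.5%) by edgeR with adjustment, and the members' numbers were the same at an unadjusted p under 0.05. DESeq2 called 6 lower and 0 higher. The 5 general subunits called were Cox5a (log2 fold change -1.67, SE 0.08, adjusted p = 4.4e-10, edgeR), Ndufa4 (-1.52), Uqcrq (-1.31), Ndufb8 (-1.14) and Atp5g1 (-1.04), beside the 3 isoforms. The median of the 44 was -0.52 against -0.22 over all genes, and 39 lay under that median; with library sizes from all UMIs the directions turned, to medians of 0.49 and 0.80, and 3 genes were called higher and 3 lower.

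Cox5a, a nuclear-encoded subunit at the matrix side of complex IV, had the lowest log2 fold change of the 44 in alpha against beta cells. It was at 262 and 282 CPM in beta cells, 83.7 and 87.2 CPM in alpha cells, 110.0 and 110.3 CPM in delta cells and 348 and 348 CPM in endothelial cells. Endothelial cells were the class of its highest level, and the alpha values were the lowest in both libraries. Over the 3 endocrine against the 3 other classes its log2 fold change was -0.82 (SE 0.05, adjusted p = 1.4e-09, edgeR), the lowest of the 44.

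Delta cells also stood under beta cells. Of 47 genes, 5 were called lower (7.89% of all genes) and 0 higher (9.54% of all genes) by edgeR. The number called lower was near that of all genes. At any fold size 35 were lower (19% of all genes) and 0 higher (22% of all genes) after adjustment, 36 and 0 at an unadjusted p under 0.05, and DESeq2 called 6 lower and 0 higher. Besides the isoforms, those called lower by edgeR were Uqcrq (-1.39, SE 0.11, adjusted p = 7.2e-08, edgeR) and Cox5a (-1.30). In delta cells Ndufa4l2 rests on 2 UMIs and Cox4i2 on 1 UMI in each library. Neither of the 2 was called with barcodes marked as doublets removed. Uqcrq, a small subunit of complex III, was at 299 and 308 CPM in delta cells. The median of the 44 was -0.44 against 0.02 over all genes, and 43 of 44 lay under it; with library sizes from all UMIs these became 0.73 and 1.19, with 10 called higher and 2 lower.

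Between delta and alpha cells no gene was called at 2-fold by edgeR or DESeq2, where 8.73% of all genes were higher in delta cells and 3.22% lower. Without the fold limit 11 of 47 were higher in delta cells after adjustment, where 23.1% of all genes were, so the count was near that of all genes. At an unadjusted p under 0.05 there were 16, and 0 were lower in either, where 6.05% of all genes were lower after adjustment. Ndufa4 had the highest log2 fold change, 0.88 (SE 0.11, adjusted p = 2.7e-05, edgeR), at 425 and 421 CPM in delta against 218 and 242 CPM in alpha cells. The median of the 44 was 0.12, under the 0.22 of all genes, and with TMM factors it was -0.13 against -0.01.

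Mural cells had more of the OXPHOS genes than endothelial cells. Of 47 genes, 7 were called higher (15.8% of all genes) and 1 lower (10.4%), so the number higher was near that of all genes. Besides the isoforms these were Cox8a (log2 fold change 1.40, SE 0.09, adjusted p = 6.8e-09, edgeR), Ndufa5 (1.24), Cox6c (1.15), Ndufs7 (1.07) and Ndufb10 (1.07), and Ndufa4 was the 1 called lower. Cox8a was at 1576 and 1352 CPM in mural and at 561 and 547 CPM in endothelial cells. The median of the 44 was 0.62 against 0.15 over all genes, and 40 of 44 lay above it. With TMM factors 4 were called higher, and with barcodes of several classes kept 2 were higher and none lower, with a median of 0.08 against 0.01.

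The mean of beta, alpha and delta cells was set against the mean of the other 3 classes. Of 47 genes, 5 were called higher (31.6% of all genes) and 2 lower (13.7%), and the 2 were Cox4i2 and Ndufa4l2. The 5 were Cox6a2 (1.80), Ndufa1 (1.45, SE 0.08, adjusted p = 3.1e-10, edgeR), Atp5l (1.33), Atp5g1 (1.02) and Sdhd (1.01). The median of the 44 was 0.55 against 0.50 over all genes, so it lay near that of other genes. The shares of members called were below those of all genes in both directions. The count called higher depended on scale, with 1 under TMM factors or DESeq2 and 0 with library sizes from all UMIs. On that last scale the median was -0.39.

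**Figure D4:**
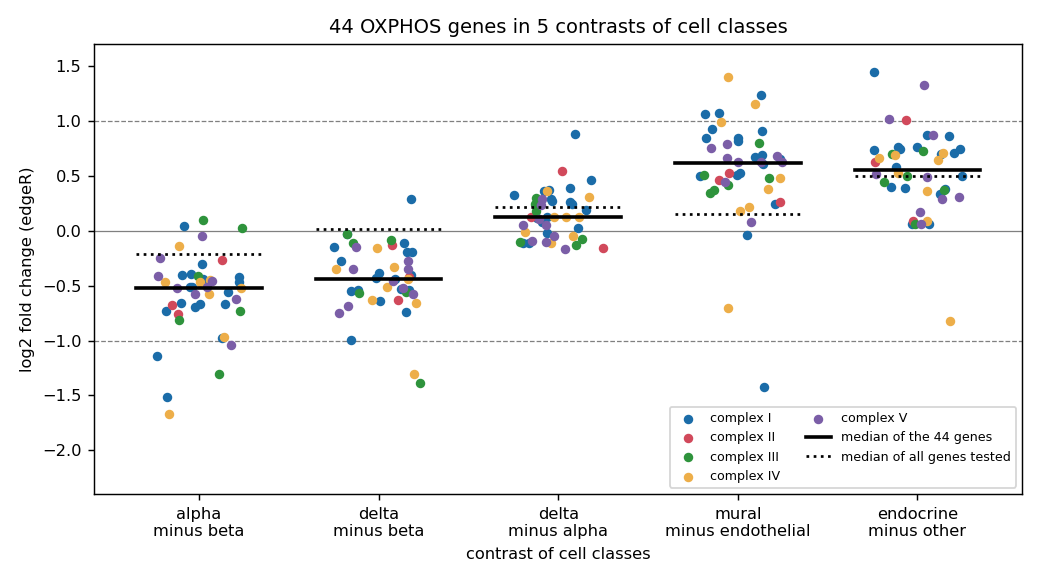
Log2 fold changes (edgeR) of the 44 general subunits in 5 contrasts of cell classes, 1 point per gene, coloured by complex. Solid bars are their medians, dotted bars the medians of all 13518 genes, and dashed lines mark 2-fold. The 44 lie under all genes in alpha and delta against beta cells (-0.52 and -0.44) and above them in mural against endothelial cells (0.62).

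Between the libraries, beta cells of the library labelled BcBKO had slightly more of these transcripts. Among the 45 members from 20 CPM, 30 lay above a log2 ratio of 0, where 45.8% of 7257 genes did, and the median was 0.04 against -0.01 over all genes. On the log2 scale a difference of 0.25 or more was counted. There were 3 genes at least 0.25 higher (3.79% of all genes) and 0 at least 0.25 lower (3.82%). With CPM of all UMIs 40 of 43 genes lay above 0 and the median was 0.11 against 0.06. No error between mice can be given.

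The 3 were Atp5o, Atp5g1 and Uqcrq. Atp5o, the stalk subunit OSCP of ATP synthase, went from 208 CPM in flox/flox to 254 CPM (log2 ratio 0.29, 0.24 to 0.33). Atp5g1, which encodes a copy of the proton-carrying c subunit, went from 730.4 to 876 CPM (0.26, 0.24 to 0.29). Uqcrq went from 726 to 865 CPM (0.25, 0.23 to 0.28).

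The lowest ratios in beta cells were of Uqcrc2, a core subunit of complex III, at 177 and 163 CPM (-0.12, -0.17 to -0.07), of Ndufs1 at 57.4 and 54.2 CPM (-0.08, -0.17 to 0.01) and of Sdhb at 185 and 175 CPM (-0.08, -0.13 to -0.03). Uqcrc2 and Uqcrq, both of complex III, thus differed in opposite directions. Cox6a2 was at -0.07 (-0.11 to -0.04) while Cox6a1 was at 0.09 (0.05 to 0.13), which is the lower pair share given above.

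By complex, the summed log2 ratios in beta cells were 0.06 for complex I (18 genes), -0.05 for complex II, 0.13 for complex III, 0.07 for complex IV (8 genes) and 0.07 for complex V. Complex II, which has no proton pump, was the 1 with a sum below 0, and with CPM of all UMIs its ratio was 0.02. The sum over the 44 genes was 0.07 (0.07 to 0.08). All 8 general subunits of complex IV and none of the 3 of complex II lay above 0.

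In the other classes the libraries differed less or more widely with fewer cells. In alpha cells the median of 44 genes was 0.0043 against 0.03 over all genes and 23 lay above 0 (57.6% of all genes), with 1 gene at least 0.25 higher (13.7% of all genes) and 1 lower (7.27%). In delta cells it was 0.01 against 0.0062, 24 of 44 lay above 0 (51.1%), with 1 higher (16.4%) and 1 lower (15.6%). In endothelial cells it was 0.02 against 0.02, 25 of 44 lay above 0 (55.7%), with 0 of 44 past 0.25 in either direction (9.89% and 8.25% of all genes). In mural cells it was -0.03 against -0.0040 for 46 genes, 20 lay above 0 (49.7%), with 0 higher (25.5%) and 3 lower (26.9%). In macrophages it was 0.04 against -0.01, 28 of 44 lay above 0 (47.9%), with 4 higher (15.2%) and 4 lower (21.4%). The median interval of a member reached 0.04 to each side in beta cells, 0.13 in endothelial, 0.14 in alpha, 0.19 in delta, 0.26 in macrophage and 0.27 in mural cells.

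The extreme genes of each class are given with their counting intervals. In alpha cells Ndufs1, the largest core subunit of complex I, was highest at 0.36 (0.07 to 0.66, 149 and 284 UMIs) and Sdhd lowest at -0.26 (-0.44 to -0.08). In delta cells Ndufv1 was highest at 0.27 (-0.04 to 0.58) and Ndufs1 lowest at -0.39 (-0.78 to -0.02). In endothelial cells Cox7b was highest at 0.18 (0.04 to 0.33) and Sdhd lowest at -0.17 (-0.40 to 0.05).
In mural cells Cox5a was highest at 0.21 (-0.11 to 0.52) and Ndufa1 lowest at -0.60 (-0.92 to -0.30, 309 and 123 UMIs). In macrophages Ndufa9 was highest at 0.36 (-0.09 to 0.82) and Ndufa10 lowest at -0.69 (-1.13 to -0.29). Atp5o, Atp5g1 and Uqcrq had ratios between -0.08 and 0.22 in the classes other than beta.

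**Figure D5:**
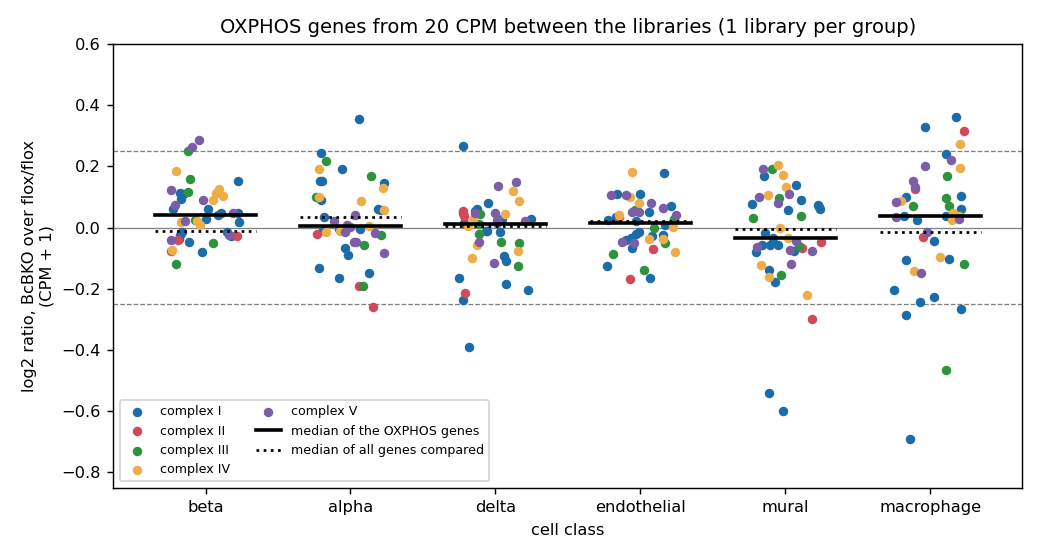
Log2 ratio of CPM + 1 between the libraries (BcBKO over flox/flox) for the OXPHOS genes from 20 CPM in each of 6 classes, 1 point per gene, coloured by complex. Solid bars are medians of these genes, dotted bars those of all genes compared, and dashed lines mark 0.25 to each side. In beta cells 3 genes lie above the upper line and none under the lower, and points spread more in mural cells and macrophages, which have fewer UMIs.

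Other genes of the pathway were taken from lists of 35 further subunits, 41 assembly factors, 7 regulators of mitochondrial genes and 14 genes responsive to hypoxia. In alpha against beta cells the further subunits had a median of -0.49 and the assembly factors -0.44, against -0.22 over all genes. Of the further subunits 4 were called lower and 0 higher, and of the assembly factors 2 lower and 0 higher. Over all genes 13.1% were called lower and 6.73% higher, so neither count called lower was above that share. In mural against endothelial cells the further subunits had a median of 0.66, against 0.15 over all genes. Of them 7 were called higher (15.8% of all genes) and 0 lower (10.4%), led by Ndufa13 (1.35, SE 0.11, adjusted p = 5.2e-08, edgeR). The further subunits thus lay near the general subunits in both contrasts.

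Between libraries in beta cells the further subunits had a median log2 ratio of 0.07, with 30 of 35 above 0, and the assembly factors -0.02, with 13 of 29, where 45.8% of all genes lay above 0. Of the assembly factors Cox17, the copper chaperone of complex IV, was lowest at 360 and 302 CPM (-0.25). Uqcc2, an assembly factor of complex III, was the highest of its list in endocrine against other classes (2.13, SE 0.06, adjusted p = 2.5e-13, edgeR), at 1052 and 1074 CPM in beta cells and 97.2 and 117 CPM in macrophages.

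Of the regulators, Ppargc1a, a coactivator of mitochondrial biogenesis, was the highest of its list in endocrine against other classes (3.24, SE 0.32, adjusted p = 1.7e-07, edgeR), at 19.6 and 22.6 CPM in beta and 4.25 and 6.39 CPM in delta cells. Ppargc1b, its relative, was the highest in mural against endothelial cells (5.44, SE 0.46, adjusted p = 1.2e-07, edgeR), at 30.3 and 29.1 CPM against 0.501 and 0.896 CPM.
Of 13 hypoxia-responsive genes tested, 2 were higher (15.8% of all genes) and 4 lower (10.4%) in mural than in endothelial cells. Hk2, hexokinase 2, was the highest of them (4.97, SE 0.73, adjusted p = 5.0e-05, edgeR), at 7.83 and 19.4 CPM in mural cells. This rests on 8 and 12 UMIs in mural and 1 and 3 UMIs in endothelial cells. The Hk2 level was highest in macrophages, at 106 and 120 CPM. Ldha, lactate dehydrogenase A, was the lowest of the list in endocrine against other classes (-5.76, SE 0.12, adjusted p = 1.5e-14, edgeR), at 4.95 and 5.48 CPM in beta and 411 and 314 CPM in mural cells.

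Of 6 other tissue isoforms, 2 were tested. Cox7a1, the muscle form of subunit VIIa, was at 3.27 and 3.45 CPM in beta cells and 4.89 and 8.09 CPM in mural cells. Cox6b2, the testis form of subunit VIb, was at 9.79 and 8.09 CPM in mural and 0.334 and 1.12 CPM in endothelial cells, with a log2 fold change of 3.78 (SE 0.80, adjusted p = 0.0014, edgeR). Neither came near the level of the 3 isoforms in their classes.

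Promoters, the 250 bases before the start of a gene, were read from RefSeq (GRCm38.p6) for 35 of the 47 genes. Not in that table were Ndufa2, Ndufa4l2, Ndufb9, Ndufs1, Uqcrc2, Uqcrb, Uqcrq, Cox4i1, Cox4i2, Cox6a2, Cox6c and Atp5a1. A match to the NRF1 motif (GCGCA and GCGC parted by 1 base) on either strand was in 7 of 35 (20%) and in 4.27% of the 26734 genes of the table. Searched likewise on both strands, the ETS motif CCGGAAG was in 7 (20%) against 7.88%, the CRE motif TGACGTCA in 2 (5.71%) against 1.78%, YY1 (AAGATGGC) in 1 (2.86%) against 1.84%, and the core hypoxia response element ACGTG in 7 (20%) against 18.6%. The promoter of Cox6a1, chr5:115348959-115349208 on the minus strand, is shown because it is the partner with matches to both leading motifs, which are in capitals (2 of NRF1 and 1 of ETS on the opposite strand).
Cox6a1 promoter: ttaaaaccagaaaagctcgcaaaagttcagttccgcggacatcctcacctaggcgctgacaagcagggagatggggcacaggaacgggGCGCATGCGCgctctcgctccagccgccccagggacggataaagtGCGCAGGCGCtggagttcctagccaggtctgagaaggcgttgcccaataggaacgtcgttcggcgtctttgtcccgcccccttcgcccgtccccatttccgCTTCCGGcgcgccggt
A match is a description of the letters and not evidence of binding. Other promoters with both motifs were those of Atp5h and Sdhd.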

How the data were processed

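Single-cell 3′ tag libraries of pooled islets were measured, 1 for flox/flox and 1 for BcBKO. The authors deposited UMI counts per gene and barcode. Per the submitters' processing notes, Cell Ranger 3.1.0, Seurat 4.0.0 and mm10 were used, while the matrix headers, per the file headers, name version 6.1.2. Which reads of related genes were discarded is not given in the sources used here.

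Barcodes with at least 500 genes, at least 1000 UMIs and at most 20% mitochondrial UMIs were kept (7568 and 8504) and classed by the rules given above. Doublets were left in, and Scrublet (scanpy 1.11.5) marked 170 and 177 of them, which were removed in an alternative. UMIs were summed per class and library and divided by the nuclear UMIs without 8 hormone and 13 mitochondrial genes. Intervals are 95% exact Poisson for levels, exact binomial for shares and conditional binomial for ratios, and the limit for 0 is 3 counts. Log2 ratios between libraries used a pseudocount of 1 CPM and genes from 20 CPM. Classes were compared by edgeR 4.0.16's quasi-likelihood test with Benjamini-Hochberg adjustment over all genes tested (R 4.3.3, 5 residual degrees of freedom), with DESeq2 1.42.0 as an alternative. The code was tested on simulated data. Tables were made with pandas 2.3.3 and scipy 1.17.1 (numpy 2.4.6) in Python 3.11.15, alignments with Biopython 1.88 and plots with matplotlib 3.10.9.

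The members and lists were chosen with earlier results of these data known. Named were the isoforms and partners, the 3 highest and 3 lowest ratios in beta cells, the extremes in other classes, the 3 highest and 3 lowest members past the threshold in each contrast, the highest member of each complex, the extremes of each further list and the 5 genes most like each isoform. The lowest members of each complex, further called members, Cox5a across classes and Cox7a1 in beta cells were named after their values were seen. An extreme of the further subunits is not reported here. Mitochondrially encoded subunits were not analysed here.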

Additional observations from a re-analysis of the deposited data

Results flagged for a closer look

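Ndufs1, a core subunit of complex I, differed between the libraries in opposite directions in alpha and delta cells. Its log2 ratio of the library labelled BcBKO over flox/flox was 0.36 in alpha cells, from 49.5 to 63.6 CPM (149 and 284 UMIs), and -0.39 in delta cells, from 77.8 to 59.1 CPM (128 and 111 UMIs). With 1 library per group, the difference between the classes was not tested.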

How the results depend on the processing

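No paired analysis was possible because each group was 1 library, and the fits between classes have the library as a term. Of the values that answer a comparison, 149 recomputed values kept within their limit and 23 moved. With all UMIs as the scale, the beta median between libraries was 0.11, and the numbers of members called higher and lower were 3 and 3 in alpha against beta cells and 10 and 2 in delta against beta cells, with 1 higher in delta against alpha cells and 0 higher in endocrine against other classes. With TMM factors 4 were higher in mural against endothelial cells and 1 in endocrine against other classes, as by DESeq2 (1). With barcodes of several classes kept, 2 were higher and 0 lower in mural against endothelial cells. With vascular thresholds doubled, the mural Cox4i2 share was 59.8% in the library labelled BcBKO and the Ndufa4l2 shares 95.6% and 96.6%. Cells with a Cox6a2 UMI were 26.7% and 27.4% of beta cells at 4000 UMIs and 79.5% and 77.1% unthinned, and those with a Cox4i2 UMI 92.4% and 89.1% of the 132 of 223 and 64 of 163 mural cells with 4000 UMIs and 91.9% and 86.5% unthinned. The sign turned for the summed log2 ratio of 44 genes in alpha (-0.022) and endothelial cells (-0.025) with TMM factors and in mural cells (0.0073) as a mean over cells, and for the delta against alpha median relative to all genes (0.020) without the filter. Members' medians between libraries, all near 0, also changed sign in 4 classes. With TMM factors they were -0.036 in alpha and -0.032 in endothelial cells. With CPM of all UMIs they were -0.0047 in endothelial and -0.0093 in delta cells. The delta median was -0.030 with barcodes of several classes kept. As a mean over cells it was -0.018 in delta and 0.037 in mural cells. The alpha change was counted as within its limit. Beyond the scale, filter or barcodes named, the cause was not tested. With 1 library alone, an alternative chosen after seeing the data, no test could be made, and medians of the 44 genes are given. For flox/flox and the library labelled BcBKO they were -0.50 and -0.51 in alpha against beta cells (all genes -0.22 and -0.15). In delta against beta cells they were -0.40 and -0.47 (all genes -0.0015 and 0.01). In mural against endothelial cells they were 0.57 and 0.55 (all genes 0.14 and 0.06). Counting error limits mural cells and macrophages most.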

Other observations

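Barcodes that met both the endothelial and the mural rule, which were in no class, had 643 CPM of Ndufa4l2 in flox/flox and 671 CPM in the library labelled BcBKO, between the mural and endothelial levels. Cox4i2 was at 299 and 314 CPM in them and Ndufa4 at 306 and 311 CPM. Their median depths were 11575 and 9487 UMIs, against 4375 and 3611 in mural and 4293 and 3941.5 in endothelial cells.

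Vegfa, which encodes an endothelial growth factor, was the highest of the hypoxia-responsive list in endocrine against other classes, with a log2 fold change of 2.94 (SE 0.07, adjusted p = 3.9e-14, edgeR's quasi-likelihood test). Sdhaf4, an assembly factor of complex II, was the highest of the assembly factors in delta against alpha cells (1.06, SE 0.10, adjusted p = 1.1e-06, edgeR).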
